A study of Mus musculus with 36 samples.

Results

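The dystrophin glycoprotein complex was followed through 8 of its genes, Dmd (dystrophin), Utrn (utrophin), Dag1 (dystroglycan), Sgca, Sgcb and Sgcd (alpha-, beta- and delta-sarcoglycan), Sspn (sarcospan) and Dtna (alpha-dystrobrevin). The genes were taken by symbol, 8 of the 55291 gene symbols in the deposited tables, and all 8 were among the 19231 genes that passed the filter on low counts. Poly(A) RNA was sequenced from atria and left ventricle in CUG960 mice, a model of myotonic dystrophy type 1 in the heart. There were 36 libraries, 6 cohorts in 2 tissues with 3 animals each, all collected at 21 weeks of age. Every animal had the genotype TREDT960I (Hom)/MHCrtTA (Hem), in which doxycycline (dox) switches on a human DMPK transcript with interrupted CUG repeats, through a transactivator driven by the cardiomyocyte alpha-myosin heavy chain promoter.

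The +dox cohort received dox from postnatal day 1 to collection, the +/-dox cohort received it from day 1 until 9 weeks of age, and the -dox cohort never received it. Dox continued in 3 further cohorts, called MBNL1, MBNL2 and MBNL1+MBNL2, which at 9 weeks, 12 weeks before collection, were given AAV9 vectors in which the cardiac TNNT2 promoter drives tagged human MBNL1, MBNL2 or both. MBNL proteins bind CUG repeats and regulate splicing in the heart. No cohort received dox without the repeat transgene, so dox and repeat RNA cannot be told apart, and by the labels the +dox mice of this experiment received no vector, so vector and MBNL protein cannot be told apart either. By the study's sample table all MBNL1+MBNL2 animals were male, while every other cohort held both sexes. Sex was thus not balanced in comparisons with that cohort, and its part in them was not tested.

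The complex spans the sarcolemma of heart and skeletal muscle. Dystrophin binds actin filaments inside the cell and the cytoplasmic end of beta-dystroglycan, while alpha-dystroglycan, cut from the same precursor, binds laminin outside through its sugar chains. The sarcoglycans and sarcospan form a subcomplex that steadies dystroglycan in the membrane, dystrobrevin and the syntrophins attach signalling proteins, and loss of dystrophin or of a sarcoglycan causes muscular dystrophy with cardiomyopathy. Utrophin is the autosomal relative of dystrophin and can take its place in the complex.

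Dag1, Sspn and Sgcb are the members on which the dox comparisons turn, and the sequence around a RefSeq start of each is given here, 5′ to 3′ on the strand of the gene, from 250 bases before to 50 bases after the start (build GRCm38.p6). Capitals mark matches, on either strand, to 5 motifs that were searched. These were the TATA box (spelled TATAAA), the CCAAT box, the GC box (here the letters GGGCGG), the E-box of muscle regulatory factors (CAGCTG was searched) and the core of the M-CAT element of muscle promoters (CATTCC was searched). The windows lie at chr9:108263909-108264208 on the minus strand for Dag1, chr6:145933872-145934171 on the plus strand for Sspn, the second of its 2 starts, and chr5:73647688-73647987 on the minus strand for Sgcb.
Dag1: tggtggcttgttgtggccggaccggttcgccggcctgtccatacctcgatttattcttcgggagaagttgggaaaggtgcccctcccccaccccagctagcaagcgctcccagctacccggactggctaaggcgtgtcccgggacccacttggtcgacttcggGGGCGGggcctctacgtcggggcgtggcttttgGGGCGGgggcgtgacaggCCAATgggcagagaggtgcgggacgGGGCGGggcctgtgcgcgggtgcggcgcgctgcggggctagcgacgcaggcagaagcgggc
Sspn: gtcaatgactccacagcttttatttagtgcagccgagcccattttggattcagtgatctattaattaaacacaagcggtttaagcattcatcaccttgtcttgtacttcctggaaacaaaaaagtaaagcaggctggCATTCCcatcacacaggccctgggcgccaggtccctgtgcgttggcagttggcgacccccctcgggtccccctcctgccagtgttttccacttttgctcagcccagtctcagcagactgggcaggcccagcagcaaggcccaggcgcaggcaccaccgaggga
Sgcb: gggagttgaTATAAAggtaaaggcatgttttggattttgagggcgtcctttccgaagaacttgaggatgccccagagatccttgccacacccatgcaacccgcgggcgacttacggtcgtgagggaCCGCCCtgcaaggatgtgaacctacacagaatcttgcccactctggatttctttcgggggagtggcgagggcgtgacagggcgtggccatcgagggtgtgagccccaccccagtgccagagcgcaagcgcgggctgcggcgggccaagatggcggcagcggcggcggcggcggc

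The Dag1 window was 69.67% G and C and held 1 match to the CCAAT box and 3 to the GC box. The Sspn window was 54.67% G and C and held 1 M-CAT match, and the Sgcb window was 62.67% G and C and held 1 TATA box and 1 GC box match. The TATA box match of Sgcb lay at base 10 of its window, which opens 250 bases before the start. Over all 32851 windows of this length, 13.62% held the TATA box, 37.41% the CCAAT box, 35.66% the GC box, 16.3% the E-box and 14.66% the M-CAT core, so each of these matches is common among promoters. No motif of the 5 matched in all 3 windows. In the GENCODE M21 annotation of GRCm38, Dag1 spans positions 108204634 to 108263958 of chromosome 9, Sspn 145931641 to 145965223 of chromosome 6 and Sgcb 73632749 to 73647790 of chromosome 5. Of the other members, Dmd, Utrn, Sgca and Sgcd lie at 82948870 to 85206141 of chromosome X (Dmd), 12382188 to 12869365 of chromosome 10 (Utrn), 94962791 to 94976327 of chromosome 11 (Sgca) and 46896253 to 47988969 of chromosome 11 (Sgcd).

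Libraries held 55032000 to 97091200 counts, and each member had between 1338 and 101974 counts in a library, so counting error was small beside the spread between animals. One library, ventricle MBNL1 replicate 1, listed 16885 genes above 0 against at least 20578 in every other library. Ventricular marker genes summed to 19974 to 28117 TPM (transcripts scaled to the same total in each library) in the ventricle of the +dox, +/-dox and -dox cohorts and to 297 to 1105 in their atria, and the atrial markers to 102 to 1016 and to 40357 to 60820, as the tissue labels say. Lymphocyte markers summed to at most 2.02 TPM in any library, and macrophage markers to at most 48.28 in the ventricle and 112.24 in the atria. Endogenous mouse and vector-derived human MBNL reads were not separated: Mbnl1 was 44.89 to 54.72 TPM in ventricle +dox and 56.4 to 68.13 in ventricle MBNL1, and Mbnl2 was 93.43 to 107.97 in ventricle +dox and 126.89 to 173.8 in ventricle MBNL2. The atria gave the same order, with Mbnl1 at 55.04 to 64.61 in +dox and 66.65 to 75.34 in MBNL1. Mouse Dmpk overlapped between ventricle +dox (251.61 to 286.36) and -dox (217.74 to 265.21), and the repeat transgene itself was not analysed here.

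All 8 members were expressed in every library. TPM divides by transcript length, so levels of different genes can be set side by side. Over the 18 ventricular libraries, Dag1 ranged from 147.43 to 235.23 TPM, Sgca from 93.59 to 132.6, Sspn from 51.11 to 84.59 and Sgcb from 46.01 to 64.75. The members with the lowest levels were Dtna (29.92 to 48.02), Sgcd (27.09 to 37.53), Dmd (26.14 to 32.91) and Utrn (14.95 to 19.71). Dystroglycan transcripts thus stood well above those of dystrophin, and dystrophin above utrophin, in each ventricular library.

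In ventricle +dox the order by mean was Dag1, Sgca, Sspn, Sgcb, Dtna, Sgcd, Dmd and Utrn, and of neighbours in that order only Dtna and Sgcd overlapped between libraries. In ventricle -dox, Sspn overlapped with Sgcb, and Dmd, Dtna and Sgcd overlapped in turn. In the atria the TPM ranges were as follows, from the highest member down: Dag1 208.35 to 359.1 TPM, Sgca 122.29 to 173.24, Sspn 73.83 to 115.46, Sgcb 58.66 to 72.68, Dmd 37.28 to 52.29, Dtna 33.33 to 52.72, Utrn 30.89 to 36.18 and Sgcd 25.72 to 36.31. In atria -dox no neighbours overlapped, and Sgcd rather than Utrn was the lowest member.

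**Figure D1:**
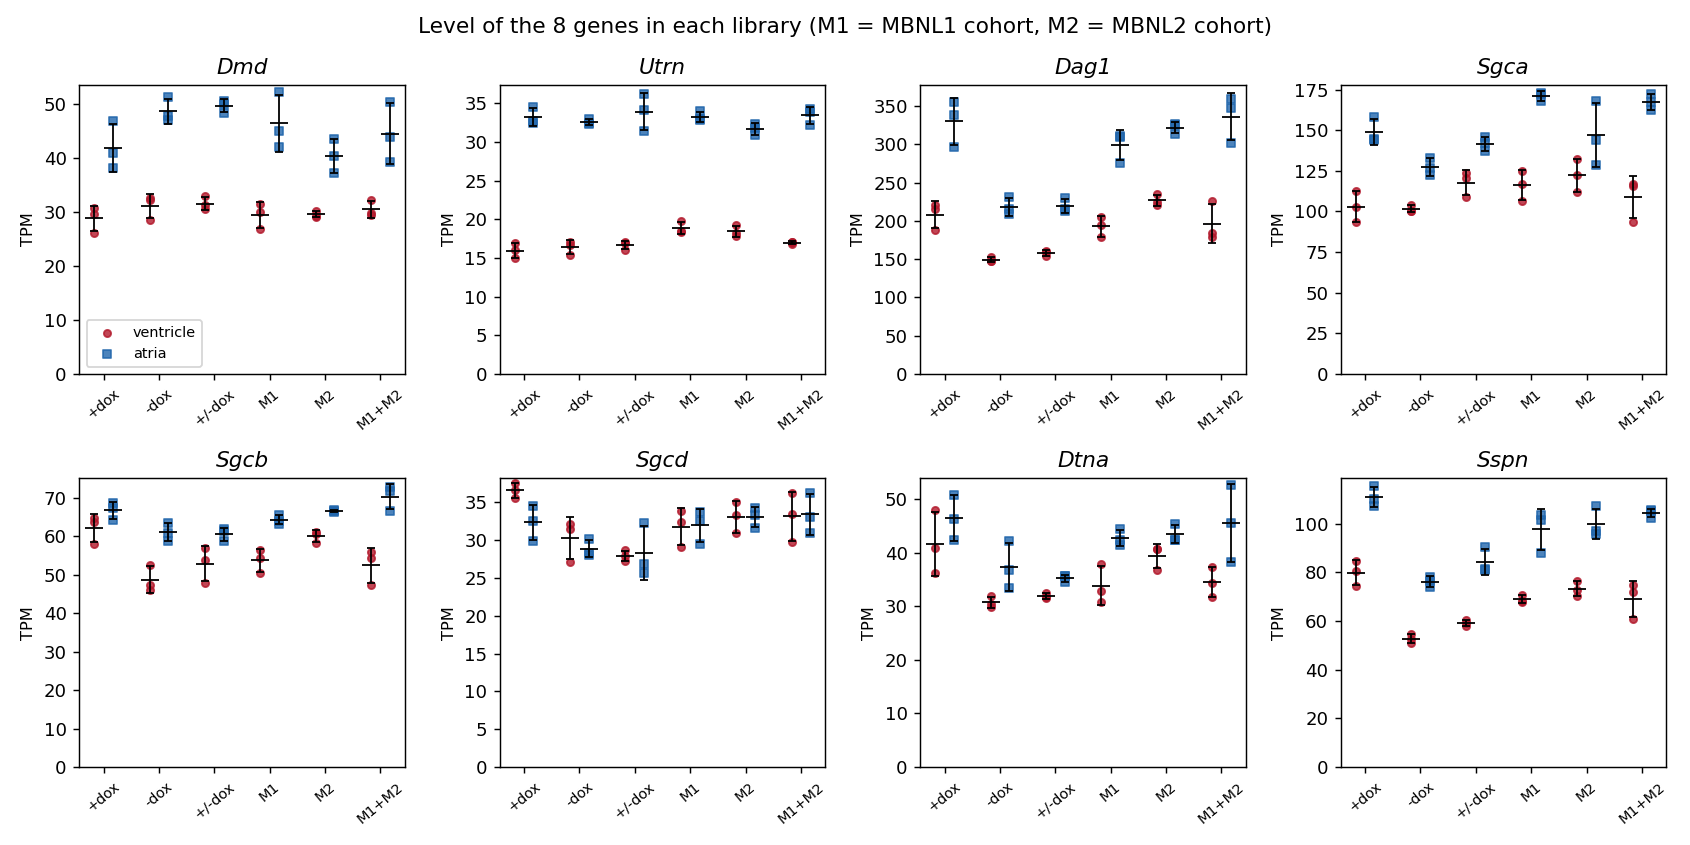
TPM of the 8 genes in each library, ventricle and atria, with 1 point per animal, lines and bars for the mean and SD of each cohort (n = 3), and M1 and M2 standing for MBNL1 and MBNL2. Dag1 stood between 188.36 and 220.72 TPM in ventricle +dox and between 147.43 and 152.81 in ventricle -dox.

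Dystroglycan, sarcospan and beta-sarcoglycan transcripts were lower in the ventricle of mice that never received dox than in +dox mice. At an adjusted p below 0.05 (edgeR's quasi-likelihood test across all genes tested), 3 of 8 members differed, all lower, beside 20.9% of all genes tested. None passed with a fold change of at least 1.5, beside 7.60% of all genes. At an unadjusted p below 0.05 there were 5 members, beside 6269 of the 19231 genes tested. DESeq2 called the same 3 genes by adjusted p and none with the fold minimum. The median log2 fold change was -0.24 over the 8 members and 0.0087 over all genes tested.

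Dag1, whose product is the laminin receptor of the complex, was at 220.72, 215.11 and 188.36 TPM in ventricle +dox and at 147.43, 147.85 and 152.81 TPM in ventricle -dox. Every -dox library lay below every +dox library, and the -dox libraries were the tighter group, with an SD of 2.99 TPM against 17.3. The difference was 1.37-fold, a log2 fold change of -0.45 (SE 0.091, adjusted p = 0.000483, edgeR). After dox was withdrawn Dag1 was at 153.89, 158.84 and 160.72 TPM, again below every +dox library (log2 fold change -0.42, adjusted p = 0.00126, edgeR).

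Sspn, the tetraspan partner of the sarcoglycans, was at 84.59, 74.37 and 80.62 TPM in ventricle +dox and at 52.52, 54.59 and 51.11 TPM in ventricle -dox. The groups did not overlap. This was the largest of the members' changes in ventricle -dox, 1.48-fold lower with a log2 fold change of -0.56 (SE 0.094, adjusted p = 5.21e-05, edgeR). In ventricle +/-dox it was at 59.24, 57.8 and 60.25 TPM, below all +dox libraries, with a log2 fold change of -0.43 (adjusted p = 0.0012, edgeR).

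Sgcb, the core of the sarcoglycan subcomplex together with delta-sarcoglycan, was at 63.83, 57.88 and 64.75 TPM in ventricle +dox and at 46.01, 47.45 and 52.65 TPM in ventricle -dox. The lowest +dox library stood above the highest -dox library. The fold was smaller than for Dag1 and Sspn, 1.25-fold lower with a log2 fold change of -0.32 (SE 0.071, adjusted p = 0.00149, edgeR). In ventricle +/-dox Sgcb was at 47.85, 53.73 and 56.84 TPM (log2 fold change -0.23, adjusted p = 0.0181, edgeR), and this call was lost without +dox replicate 1 (adjusted p = 0.0818) or without +/-dox replicate 1 (adjusted p = 0.119).

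Dystrophin and utrophin, the actin-binding members, showed no called difference with dox in the ventricle. Dmd was at 30.71, 26.14 and 29.63 TPM in ventricle +dox and at 28.58, 32.6 and 32.16 TPM in ventricle -dox, and the groups overlapped. Its log2 fold change was 0.11 (95% interval -0.14 to 0.37, adjusted p = 0.579, edgeR). For Utrn, at 15.96, 14.95 and 16.87 TPM in +dox and 17.09, 16.66 and 15.41 TPM in -dox, the log2 fold change was 0.084 (95% interval -0.072 to 0.24). The cohorts overlapped for Utrn too.

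Of the other members, Sgcd was at 36.69, 37.53 and 35.59 TPM in ventricle +dox, 31.55, 32.21 and 27.09 TPM in -dox, and 27.31, 28.67 and 27.88 TPM in +/-dox. The -dox difference did not pass the test (log2 fold change -0.23, adjusted p = 0.143, edgeR), while the +/-dox difference did (log2 fold change -0.38, adjusted p = 0.013). The -dox difference of Sgcd was called with the library set, read from the library names, as a covariate (adjusted p = 0.0376, edgeR) and on log2(TPM + 1) (adjusted p = 0.0195, limma). The +/-dox call was lost without +dox replicate 2 (adjusted p = 0.0649) or without +/-dox replicate 3 (adjusted p = 0.0612).

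Sgca, the sarcoglycan that is largely restricted to striated muscle, went the other way in ventricle +/-dox. It was at 112.68, 102.48 and 93.59 TPM in +dox, 100.52, 100.34 and 104 TPM in -dox, and 109.18, 123.85 and 120.49 TPM in +/-dox. In TPM the +dox and +/-dox libraries overlapped, and the rise passed the threshold narrowly (log2 fold change 0.23, adjusted p = 0.0472, edgeR). It was lost in 9 of 16 alternative analyses, among them those without +dox replicate 2 or 3 or +/-dox replicate 2 or 3, where the adjusted p was between 0.0576 and 0.304. In ventricle -dox the log2 fold change of Sgca was 0.036 (adjusted p = 0.813, edgeR).

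In ventricle +/-dox against +dox 5 of 8 members were thus called, 4 lower and 1 higher, beside 21.8% of all genes, and none with the fold minimum, beside 6.60% of all genes. DESeq2 called 6 by adjusted p, Dtna being the additional one. Both dox comparisons share the +dox libraries, so they are not independent. Within the library sets, which hold replicates 1 and 2 (set A) and replicate 3 (set B), all 14 differences called against +dox in the cohorts present in both sets kept their sign in each. Set B has 1 library per group, so it carries no test. The differences were called from these same libraries, so the shared signs were partly fixed in advance.

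The cell-type markers in the same libraries moved too. Over all genes, 20.9% were called in ventricle -dox and 21.8% in +/-dox, in either direction. Endothelial markers summed to 172 to 188 TPM in ventricle +dox, 212 to 270 in -dox and 218 to 238 in +/-dox, with 5 of 6 and 4 of 6 markers called higher. Smooth muscle and pericyte markers summed to 241 to 313 TPM in +dox, 317 to 367 in -dox and 293 to 343 in +/-dox, with 4 of 7 called higher in each comparison. Cardiomyocyte markers summed to 26881 to 28858 TPM in +dox, 28207 to 30472 in -dox and 32170 to 33889 in +/-dox, and 3 of 8 and 5 of 8 were called higher. No marker of these 3 lists had a mean TPM below 0.5 in any group. Adipocyte markers, some with a mean below 0.5, summed to 367 to 431 TPM in +dox, 504 to 621 in -dox and 440 to 515 in +/-dox. Of these, 1 of 5 and 0 of 5 were called higher. Fibroblast markers summed to 652 to 707 TPM in +dox, 564 to 707 in -dox and 716 to 820 in +/-dox, with 1 of 6 and 2 of 6 called higher. The part of cell composition in the differences of the members was not tested. In bulk tissue, fewer cells of a type and less RNA per cell cannot be told apart.

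In the atria the same pair led. In atria -dox against +dox 2 of 8 members were called, Dag1 and Sspn, both lower, beside 15.9% of all genes. None passed the fold minimum, beside 5.23% of all genes. At an unadjusted p below 0.05 there were 4 members, beside 5568 of the 19231 genes tested. DESeq2 gave the same 2 genes by adjusted p and none with the fold minimum. The median log2 fold change was -0.14 over the members and 0.027 over all genes.

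Dag1 was at 338.34, 355.25 and 296.38 TPM in atria +dox and at 208.35, 215.57 and 231.69 TPM in atria -dox. The highest -dox library lay well below the lowest +dox library. The log2 fold change was -0.56 (SE 0.091, adjusted p = 4.79e-05, edgeR), 1.48-fold lower. In atria +/-dox Dag1 was at 215.65, 213.55 and 230.39 TPM, close to the -dox libraries and 1.45-fold below +dox (log2 fold change -0.53, adjusted p = 0.000126, edgeR).

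Sspn was at 107.31, 115.46 and 110.08 TPM in atria +dox and at 76.53, 78.12 and 73.83 TPM in atria -dox, 1.42-fold lower with no overlap (log2 fold change -0.51, SE 0.094, adjusted p = 0.000267, edgeR). In atria +/-dox it was at 90.6, 80.98 and 81.22 TPM, between the other cohorts (log2 fold change -0.34, adjusted p = 0.0137, edgeR). The +/-dox call was lost without atria +dox replicate 1 (adjusted p = 0.062) or 2 (adjusted p = 0.0691), or without atria +/-dox replicate 3 (adjusted p = 0.0984).

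The sarcoglycans did not pass the test in the atria. Sgcb was at 67.47, 68.56 and 64.21 TPM in atria +dox and at 58.67, 63.35 and 60.94 TPM in -dox, which do not overlap in TPM (log2 fold change -0.099, adjusted p = 0.385, edgeR). Sgca was at 144.5, 158.38 and 144.25 TPM in +dox and at 126.56, 122.29 and 133.18 TPM in -dox (log2 fold change -0.19, adjusted p = 0.121), and Sgcd was at 32.61, 34.55 and 29.92 TPM in +dox and 30.22, 28.12 and 28.32 TPM in -dox (log2 fold change -0.13, adjusted p = 0.475). Dmd was at 40.89, 38.16 and 46.83 TPM in atria +dox, 47.85, 51.35 and 47.02 TPM in -dox and 48.38, 50.68 and 50.14 TPM in +/-dox. In TPM the -dox and +/-dox libraries of Dmd stood above those of +dox, while on scaled counts -dox and +dox overlapped, and the log2 fold changes of 0.28 and 0.31 did not pass the test (adjusted p = 0.138 and 0.109, edgeR). Dmd was called in atria +/-dox with the library set as a covariate (log2 fold change 0.31, adjusted p = 0.0296, edgeR) and in atria -dox in set A alone (0.38, adjusted p = 0.0293). Utrn was nearly the same in atria +dox (32.44, 32.69 and 34.57 TPM) and -dox (32.93, 32.27 and 32.49 TPM), with a 95% interval of -0.13 to 0.18 for the log2 fold change.

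In atria +/-dox against +dox 2 of 8 members were called, beside 12.6% of all genes, and none with the fold minimum, beside 3.99% of all genes. At an unadjusted p below 0.05 there were 3 members, beside 4842 of the 19231 genes tested, and DESeq2 called the same 2 by adjusted p. The marker calls that follow stand beside 15.9% of all genes called in atria -dox and 12.6% in +/-dox. Endothelial markers summed to 240 to 275 TPM in atria +dox, 307 to 370 in -dox (5 of 6 called higher) and 265 to 320 in +/-dox (1 of 6). Fibroblast markers summed to 1062 to 1334 TPM in atria +dox, 1416 to 1542 in -dox (3 of 6 called higher) and 1238 to 1508 in +/-dox (1 of 6), and cardiomyocyte markers to 27557 to 28569, 29980 to 31144 and 30556 to 32542 TPM (4 of 8 called higher in each). The part of these shifts in the falls of Dag1 and Sspn was not tested.

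**Figure D2:**
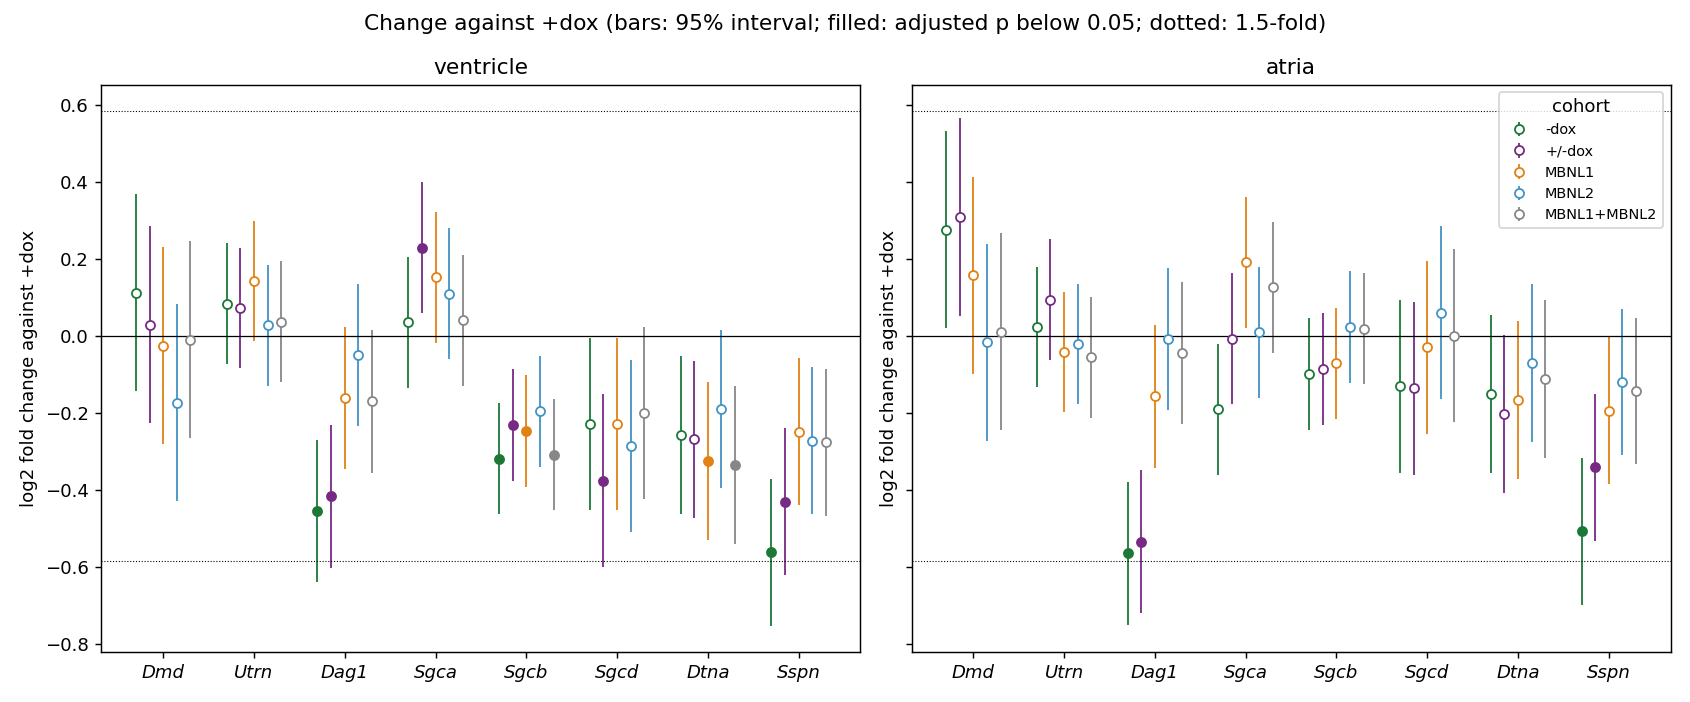
Log2 fold change against +dox of the 8 genes in each cohort and tissue, with 95% intervals from edgeR. Dag1 and Sspn in -dox sat between -0.56 and -0.45 in both tissues, while the lowest value of any member in the atria of the 3 MBNL cohorts was -0.19 (Sspn, MBNL1).

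The MBNL cohorts asked how far extra MBNL changes the transcripts while dox continues. In ventricle MBNL1 against +dox 2 of 8 members were called lower, Sgcb and Dtna, beside 8.95% of all genes. In ventricle MBNL1+MBNL2 the same 2 were called lower, beside 8.34% of all genes, and DESeq2 called the same 2 in each. In ventricle MBNL2 none was called, beside 7.43% of all genes, and none by DESeq2. There 3 members had an unadjusted p below 0.05, beside 4294 of the 19231 genes tested. None passed the fold minimum in any of the 3 cohorts. The share of all genes passing it there is not reported here, so this is no result about the members.

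Sgcb was at 54.42, 50.47 and 56.38 TPM in ventricle MBNL1, 61.18, 58.35 and 60.65 TPM in MBNL2 and 47.29, 54.26 and 55.87 TPM in MBNL1+MBNL2, against 63.83, 57.88 and 64.75 TPM in +dox. The MBNL1 and MBNL1+MBNL2 libraries lay below all +dox libraries, and in TPM those of MBNL2 overlapped with them. The log2 fold changes were -0.25 (adjusted p = 0.0261), -0.20 (adjusted p = 0.0865) and -0.31 (adjusted p = 0.00546, edgeR). The MBNL1 call was lost in 5 of 15 alternative analyses, including those without +dox replicate 1, MBNL1 replicate 2 or MBNL1 replicate 3 (adjusted p between 0.0747 and 0.101), and the MBNL1+MBNL2 call without MBNL1+MBNL2 replicate 1 (adjusted p = 0.0669).

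Dtna, which carries the syntrophins, was at 30.76, 32.89 and 37.93 TPM in ventricle MBNL1, 40.76, 36.77 and 40.75 TPM in MBNL2 and 31.77, 37.41 and 34.41 TPM in MBNL1+MBNL2, against 40.96, 36.16 and 48.02 TPM in +dox. In TPM each of these groups overlapped with +dox. On counts the log2 fold change was -0.33 in MBNL1 (adjusted p = 0.0384) and -0.33 in MBNL1+MBNL2 (adjusted p = 0.0347, edgeR). These calls depended on single libraries: the MBNL1 call was lost without +dox replicate 1 or 3 or MBNL1 replicate 1 or 2 (adjusted p between 0.0717 and 0.146), and the MBNL1+MBNL2 call without +dox replicate 1 or 3 or MBNL1+MBNL2 replicate 1 or 2 (adjusted p between 0.0707 and 0.214). All MBNL1+MBNL2 libraries were of set B, and this call of Dtna was also lost with the library set as a covariate (adjusted p = 0.0638), with DESeq2 size factors (0.0512) and in the ventricle alone (0.0568, edgeR).

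Dag1 and Sspn, called in both off-dox cohorts, were not called in any MBNL cohort. Ventricular Dag1 was at 179.04, 193.96 and 205.72 TPM in MBNL1, 221.12, 224.7 and 235.23 TPM in MBNL2 and 179.09, 225.82 and 183.71 TPM in MBNL1+MBNL2. The MBNL2 libraries were above all +dox libraries in TPM, but on counts its log2 fold change was -0.05, and -0.16 and -0.17 in the other two cohorts. TPM and scaled counts differed by a median of 0.13 (log2) over all genes in this MBNL2 comparison. Ventricular Sspn was at 70.82, 67.93 and 68.06 TPM in MBNL1, 70.37, 76.37 and 72.95 TPM in MBNL2 and 60.85, 74.61 and 72.1 TPM in MBNL1+MBNL2, with log2 fold changes of -0.25 (95% interval -0.44 to -0.058), -0.27 (-0.46 to -0.081) and -0.28 (-0.47 to -0.085). None of these passed after adjustment over all genes (adjusted p = 0.0895, 0.0696 and 0.0631, edgeR).

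In the atria no member was called in an MBNL cohort, and few genes were. The shares of all genes called were 0.348% in MBNL1, 0.0104% in MBNL2 and 0.686% in MBNL1+MBNL2. At an unadjusted p below 0.05 there were 2 members in MBNL1 and 0 in each of the others, and DESeq2 called none. Of the 19231 genes tested, 1521 were below that limit in MBNL1, 831 in MBNL2 and 1924 in MBNL1+MBNL2. Atrial Dag1 was at 310.72, 310.01 and 276 TPM in MBNL1, 325.07, 313.84 and 326.45 TPM in MBNL2 and 301.31, 359.1 and 347.88 TPM in MBNL1+MBNL2, overlapping with +dox in each. Its log2 fold changes on counts were -0.16 (95% interval -0.34 to 0.029), -0.0078 (-0.19 to 0.18) and -0.044 (-0.23 to 0.14), so the fall of -0.56 seen without dox lies outside all 3 intervals.

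The cohort with both vectors was also compared with the cohort taken off dox at the age at which the vectors were given. In the atria Dag1 was called, higher in MBNL1+MBNL2 than in +/-dox (log2 fold change 0.49, SE 0.091, adjusted p = 0.00086, edgeR), 1 of 8 members beside 6.86% of all genes. It was called in 15 of 15 alternative analyses, and TPM and scaled counts differed by a median of 0.10 (log2) over all genes here. Sspn was at 102.53, 105.15 and 105.49 TPM in atria MBNL1+MBNL2, above all +/-dox libraries, but its log2 fold change of 0.20 did not pass the test (adjusted p = 0.23). In the ventricle 0 of 8 members were called, beside 1.77% of all genes, and none by DESeq2. There 2 members had an unadjusted p below 0.05, beside 2821 of the 19231 genes tested. Ventricular Dag1 had a log2 fold change of 0.25 (adjusted p = 0.177, edgeR).

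No member was called between the never-dox and withdrawn cohorts. In -dox against +/-dox 0 of 8 members were called in the ventricle, beside 0.0572% of all genes, and 0 of 8 in the atria, beside 0.0208% of all genes. In each tissue 1 member, Sgca, had an unadjusted p below 0.05, and DESeq2 called none. Of the 19231 genes tested, 1586 were below that limit in the ventricle and 907 in the atria. Sgca was lower in -dox than in +/-dox without overlap in both tissues (log2 fold change -0.19 in the ventricle and -0.18 in the atria, adjusted p = 0.545 and 1). For Dag1 the 95% intervals of this difference were -0.22 to 0.15 in the ventricle and -0.21 to 0.16 in the atria.

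Whether the response differed between chambers was tested directly. For -dox against +dox 0 of 8 members differed between atria and ventricle, beside 1.03% of all genes, and for MBNL1+MBNL2 against +dox 0 of 8, beside 0.0728% of all genes. Each test had 1 member with an unadjusted p below 0.05, Sgcb in both, and DESeq2 called none. Of the 19231 genes tested, 2120 were below that limit for -dox and 1246 for MBNL1+MBNL2. The log2 fold change of Sgcb was higher in the atria than in the ventricle by 0.22 without dox (95% interval 0.015 to 0.42, adjusted p = 0.402) and by 0.33 with both vectors (0.12 to 0.53, adjusted p = 0.329, edgeR). For Dag1 the difference between chambers was -0.11 (95% interval -0.37 to 0.15) and for Sspn 0.054 (-0.22 to 0.32). The same animals gave both tissues, which the fit of group means does not use. An alternative chosen after seeing the data used the replicate number within a cohort as a block, standing for the animal. The labels do not tie these numbers to animals. With that block 0 of 8 members were called in each of these tests (edgeR).

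Expected counts divided by TPM also give an estimate of the mean length, in bases, of the transcripts a gene produced, since TPM corrects for it. The estimate rests on how RSEM divided reads among annotated transcripts, and reads across exon junctions were not counted. This length index could be tested for 5 members, Dmd, Utrn, Dag1, Sgca and Dtna, because it hardly varied for Sgcb, Sgcd and Sspn. Dtna was the member whose estimated mean transcript length was greater off dox. It was 2646.1, 2601.9 and 2571.7 bases in ventricle +dox and 2893.7, 2889.4 and 2725.7 bases in ventricle -dox, and every -dox library was the longer. The log2 difference was 0.13 (SE 0.031, adjusted p = 0.0116, limma), 1 of 5 members beside 4.26% of the genes tested. It was lost without -dox replicate 1 (adjusted p = 0.08) or 2 (adjusted p = 0.0581).

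In ventricle +/-dox Dtna was 2749.8, 2800.7 and 2787.8 bases, again longer than in every +dox library, though the log2 difference of 0.10 did not pass (adjusted p = 0.0581, limma), and 0 of 5 members were called beside 5.13% of the genes tested. The atria gave the same direction. There Dtna was 2448.3, 2422.0 and 2579.0 bases in +dox, 2645.0, 2817.6 and 2629.3 in -dox and 2720.7, 2710.8 and 2699.7 in +/-dox. Again no off-dox library was as short as any +dox library. The log2 differences were 0.13 (adjusted p = 0.0151) and 0.14 (adjusted p = 0.00705, limma), in each case 1 of 5 members, beside 3.23% and 3.17% of the genes tested. The first call was lost without atria +dox replicate 1 or 2 or -dox replicate 2 (adjusted p between 0.0918 and 0.183) and the second without atria +dox replicate 1 or 2 (0.0549 and 0.0712).

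With both MBNL vectors the lengths of Dtna overlapped with those of +dox mice. It was 2485.8, 2611.1 and 2688.7 bases in ventricle MBNL1+MBNL2 and 2433.1, 2419.4 and 2459.3 bases in atria MBNL1+MBNL2, and 0 of 5 members were called against +dox, beside 1.85% of the genes tested in the ventricle and 0.350% in the atria. Its log2 differences from +dox were -0.0064 and -0.028 (adjusted p = 0.922 and 0.783, limma). In a comparison added after these values were seen, atrial Dtna was shorter in MBNL1+MBNL2 than in +/-dox by 0.17 on the log2 scale (SE 0.031, adjusted p = 0.00398, limma), 1 of 5 members beside 1.07% of the genes tested. In the ventricle the same comparison called 0 of 5, beside 0.680% (Dtna log2 difference -0.11, adjusted p = 0.15).

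The annotated Dtna transcripts run from 359 bases (Dtna-208) to 6295 bases (Dtna-202), and the mean of 2415 to 2894 bases over all libraries lies within that range. Since TPM divides by length, the difference in Dtna abundance was not the same on both scales. On log2(TPM + 1) Dtna was lower off dox in all 4 comparisons, with differences of -0.42 in ventricle -dox (adjusted p = 0.0027), -0.36 in ventricle +/-dox (0.0084), -0.31 in atria -dox (0.0262) and -0.38 in atria +/-dox (0.00658, limma). On counts the same differences were -0.26, -0.27, -0.15 and -0.20, and none passed (adjusted p from 0.053 to 0.339, edgeR). The libraries in TPM were 30.45, 31.93 and 29.92 in ventricle -dox and 31.66, 31.64 and 32.57 in ventricle +/-dox, below all of ventricle +dox.

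For the other members no change of length was called in any planned comparison. Dmd ranged from 10606 to 12901 bases, between the 14910 bases of Dmd-203 and the 4438 of Dmd-201, and Utrn from 11367 to 12292, close to Utrn-201 (12382). Dag1 ranged from 5148 to 5328 and Sgca from 1495 to 1543 bases. Sgcb was at 3786 bases in every library, the length of Sgcb-201, while Sspn (4431 to 4433) and Sgcd (1617 to 1625) stood at the length of Sspn-201 and Sgcd-201.

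**Figure D3:**
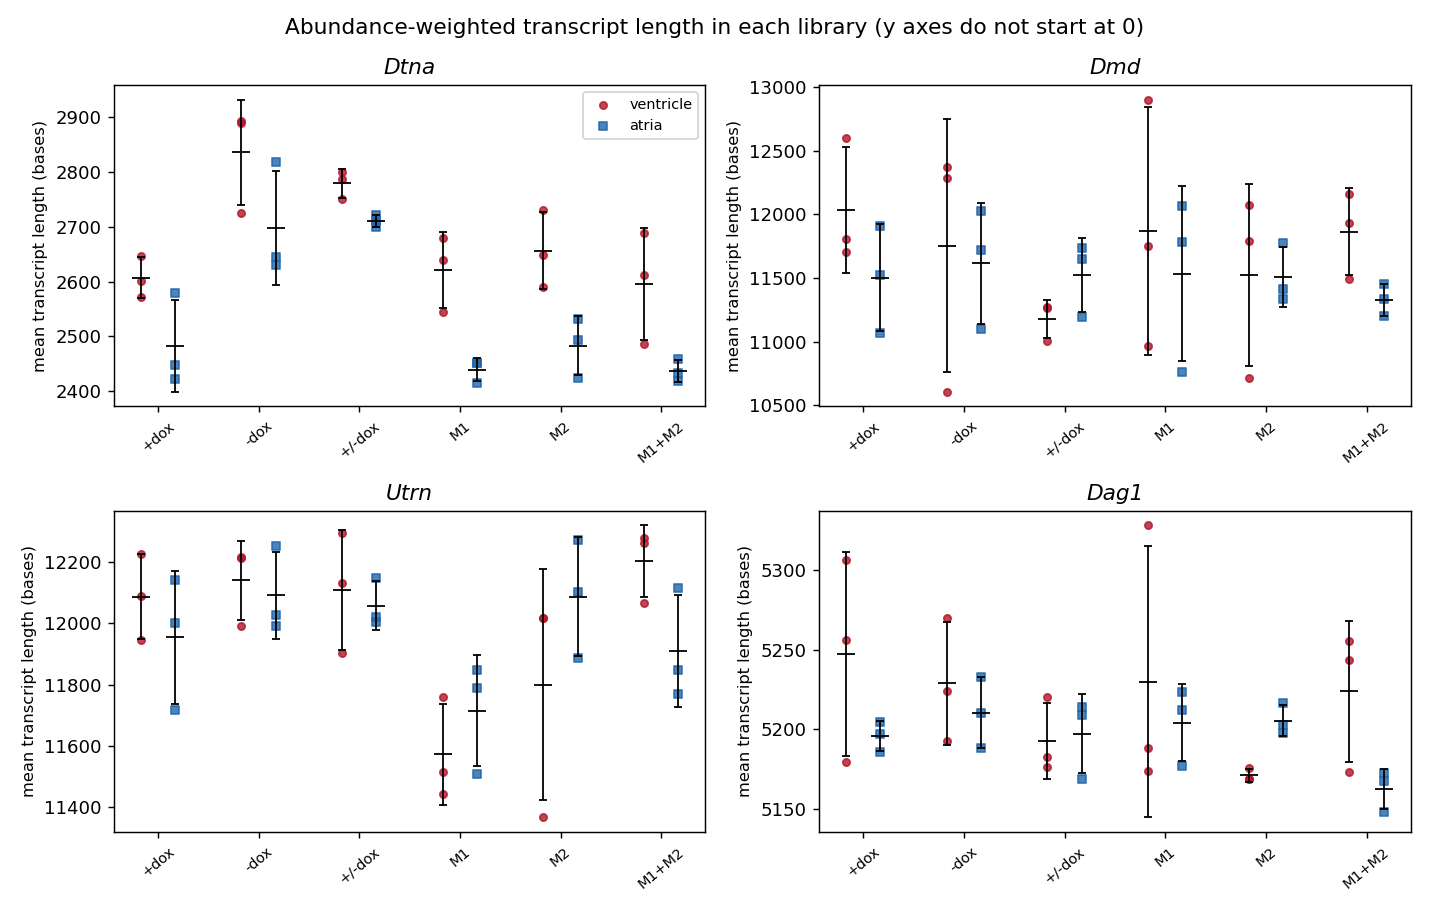
Estimated mean transcript length in bases, from expected counts and TPM, of Dtna, Dmd, Utrn and Dag1 in each library, with 1 point per animal and lines and bars for the mean and SD of each cohort (axes do not start at 0). Dtna lay between 2571.7 and 2646.1 bases in ventricle +dox and between 2725.7 and 2893.7 in ventricle -dox.

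The chambers were compared in -dox mice, in which the repeat RNA is not induced. On scaled counts 5 of 8 members differed at an adjusted p below 0.05, beside 42.6% of all genes, and 1, Sgcd, also passed the fold minimum, beside 24.9%. DESeq2 gave the same numbers. Utrn, which is also made by non-muscle cells, was higher in the atria, at 32.93, 32.27 and 32.49 TPM against 17.09, 16.66 and 15.41 in the ventricle, with no overlap. Its log2 fold change was 0.44 on counts (adjusted p = 1.75e-05, edgeR), 0.95 on log2(TPM + 1), and 0.46 after the median shift between these scales was taken off.

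The direction of other members depended on the scale. TPM moved the median of 14128 genes up by 0.49 in the atria relative to scaled counts, and transcripts of 37 mitochondrial genes took 28.6 to 31.3% of TPM in ventricle -dox and 20.01 to 22.22% in atria -dox. Sgca, Sgcb and Dtna were lower in the atria on counts (log2 fold changes -0.24, -0.21 and -0.35, adjusted p = 0.0194, 0.0142 and 0.00538, edgeR) but higher on log2(TPM + 1) (0.32, 0.32 and 0.27), and relative to the shift they were lower (-0.17, -0.17 and -0.22). The count-based calls were also lost without single libraries, that of Sgcb and Dtna without atria -dox replicate 3 (adjusted p = 0.0964 and 0.0517) and that of Sgca without ventricle -dox replicate 1 or 2 or atria -dox replicate 2 or 3 (adjusted p between 0.0568 and 0.0626).

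Sgcd was lower in the atria by 0.62 on the log2 scale on counts (1.53-fold, adjusted p = 2.68e-05, edgeR) and by 0.55 relative to the shift, while in TPM the chambers overlapped, at 30.22, 28.12 and 28.32 in atria and 31.55, 32.21 and 27.09 in ventricle (difference -0.063, adjusted p = 0.503, limma). Its fold fell under the minimum when ventricle -dox replicate 1 or 2 or atria -dox replicate 3 was left out. Dmd, Dag1 and Sspn were not called on counts (log2 fold changes 0.091, -0.00086 and -0.013) and were higher in the atria on log2(TPM + 1) (0.63, 0.54 and 0.52), close to the shift itself.

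**Figure D4:**
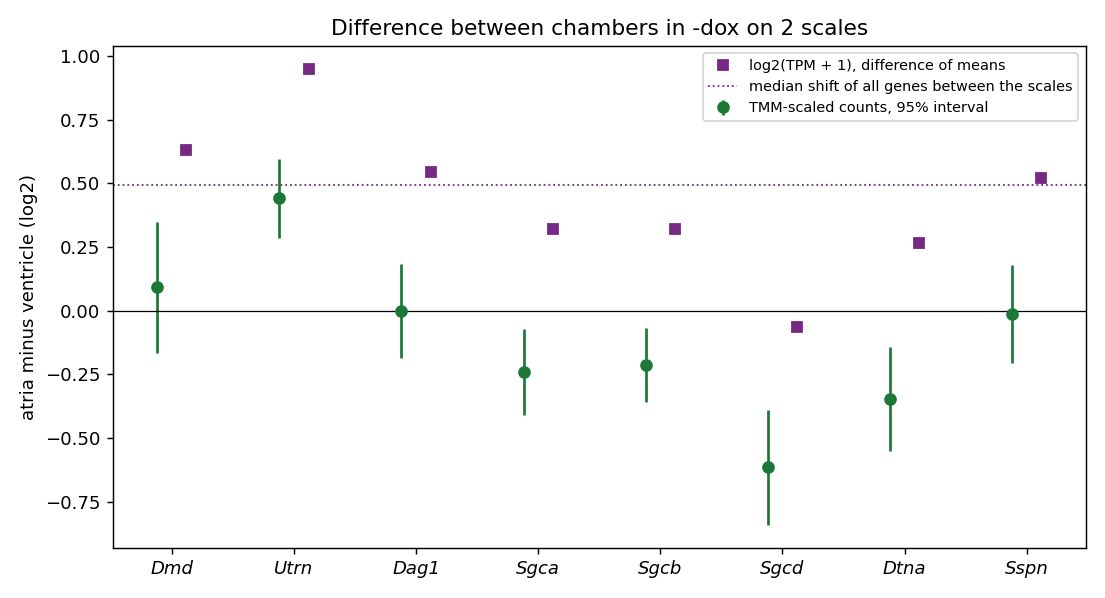
Atria minus ventricle in -dox, in log2 units, for the 8 genes on scaled counts (with 95% intervals) and on log2(TPM + 1), with a dotted line at the median shift of all genes between the scales. Utrn stood above and Sgcd below the other members on both scales, and Sgca, Sgcb and Dtna had opposite signs on the 2 scales.

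Other genes set beside the complex were counted as a list of 15, of which 13 were tested. Not all of them encode parts of the complex, Trim72 being a membrane repair gene. In ventricle -dox 4 of 13 were lower and 0 higher, beside 20.9% of all genes called in either direction, with a list median of -0.29. In atria -dox 4 were lower and 1 higher, beside 15.9% of all genes, with a median of -0.18. Cav3, the muscle caveolin, fell from a mean of 73.6 to 49.3 TPM in the ventricle (log2 fold change -0.54, adjusted p = 0.00164, edgeR) and from 74.2 to 46.8 in the atria (-0.63, adjusted p = 0.00041). Sgce, epsilon-sarcoglycan, the widely expressed relative of Sgca, fell in the ventricle (-0.29, adjusted p = 0.0113) and in the atria (-0.58, adjusted p = 5.54e-06). Dtnbp1 (dysbindin, which binds dystrobrevin) fell in the ventricle (-0.33, adjusted p = 0.00465, edgeR). In the atria Sntg2, a syntrophin, fell from a low mean of 1.16 to 0.273 TPM (-2.05, adjusted p = 0.0248). Trim72, a membrane repair protein, rose in the atria (0.54, adjusted p = 0.00729, edgeR) and was the 1 gene of the list called higher there. Nos1 was called lower in both tissues at a mean of at most 0.21 TPM.

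In +/-dox the same list had 3 lower and 1 higher in the ventricle, beside 21.8% of all genes, and 2 lower and 1 higher in the atria, beside 12.6%. In MBNL1+MBNL2 it had 0 lower and 1 higher in the ventricle, beside 8.34% of all genes, and 0 in either direction in the atria, beside 0.686%. The lists were chosen with earlier results of these data known, so these counts stand as a description.

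Of 11 laminins and other matrix ligands of dystroglycan, 2 rose and 0 fell in ventricle -dox, a share near the 20.9% of all genes called and so no result about the ligands. In ventricle +/-dox 7 rose and 0 fell, beside 21.8% of all genes, and in the atria 4 rose and 0 fell in each comparison, beside 15.9% of all genes in -dox and 12.6% in +/-dox. Lama5, a laminin alpha chain of vascular basement membrane, rose from 12.6 to 22.5 TPM in ventricle -dox (log2 fold change 0.85, adjusted p = 8.25e-07, edgeR) and from 11.007 to 13.5 in atria -dox (0.32, adjusted p = 0.0337). Egflam (pikachurin) rose in both tissues (0.65, adjusted p = 0.0019, and 0.71, adjusted p = 0.00116), and Lama4 (0.29, adjusted p = 0.0119) and Lamb2 (0.34, adjusted p = 0.0311) rose in the atria. Lama2, the laminin alpha chain of the muscle fibre, had log2 fold changes of 0.15 and 0.075, and neither passed. In MBNL1+MBNL2 against +dox 1 ligand rose in the ventricle, beside 8.34% of all genes, and none was called in the atria, beside 0.686%. Endothelial markers rose in the same -dox libraries, as given above, and their part in this list was not tested.

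Of 15 enzymes that build or supply the sugar chains of alpha-dystroglycan, 2 fell and 0 rose in ventricle -dox, with a list median of -0.14, a smaller share than the 20.9% of all genes called and so no result about the enzymes. In atria -dox 4 fell and 0 rose, beside 15.9% of all genes, with a median of -0.13. Pomgnt2 (log2 fold change -0.34 in the ventricle, adjusted p = 0.0225, and -0.70 in the atria, adjusted p = 2.01e-05) and Pomk (-0.44, adjusted p = 0.00208, and -0.46, adjusted p = 0.00126) fell in both tissues (edgeR). Pomgnt1 (-0.44, adjusted p = 0.000191) and B4gat1 (-0.33, adjusted p = 0.0024) fell in the atria. In +/-dox 1 fell and 1 rose in the ventricle, beside 21.8% of all genes, and 6 fell in the atria, beside 12.6%. In MBNL1+MBNL2 against +dox 1 enzyme rose in the ventricle and none was called in the atria, beside 8.34% and 0.686% of all genes.

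Members differed in which genes they followed over the 18 ventricular libraries. Among 8542 genes with a mean of at least 10 CPM, the highest correlations of log2 values were with Prkag2 (r = 0.957) and Arhgef7 (0.950) for Dag1, with Zfp652 (0.956) and Krt222 (0.944) for Sspn, and with Erbin (0.917) and Luc7l2 (0.906) for Sgcd. For Sgca they were Ctc1 (0.894) and Nt5c3b (0.871), for Dtna Ap3m1 (0.886) and Acer3 (0.875), for Dmd Eif3m (0.885) and Lrrc39 (0.881), for Sgcb Scfd1 (0.879) and H3f3a (0.878), and for Utrn Pstk (0.866) and Pdcd11 (0.834). These points share cohorts and library sets, so r describes the libraries and is not a test. Among the members themselves, once cohort means were taken off, Dmd and Utrn varied together most in the ventricle (r = 0.82), and Sgca and Dtna least (r = -0.29).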

How the data were processed

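RNA from left ventricle and atria of 3 CUG960 mice per cohort (RNeasy Fibrous kit, TruSeq Stranded mRNA, NovaSeq paired reads) was mapped by the authors with STAR 2.7.10b to mm10 and GENCODE M25. The authors deposited expected counts and TPM from RSEM 1.3.1, both per gene symbol. The strand setting is not given in the sources used here. RSEM divides reads that fit several transcripts, which can move counts between overlapping genes. The 2 tables hold all 36 libraries, grouped by their titles, with 0 columns left unused.

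Expected counts were rounded and fitted in edgeR 4.0.16 (TMM scaling, filterByExpr, robust quasi-likelihood test) on R 4.3.3 with 12 group means over all 36 libraries, and p-values were adjusted by Benjamini-Hochberg over the 19231 genes tested. DESeq2 1.42.0, its size factors, no filter, each tissue alone, the library set as a covariate or set A alone, TPM fits and leaving out each library were alternatives. TPM fits used limma 3.58.1 on log2(TPM + 1), or a pseudocount of 0.1, for genes with a mean of at least 0.5 TPM, and fold changes on that scale understate changes of low genes. The length index was log2(expected count / TPM), centred in each library, for genes with at least 100 counts and 1 TPM in every library. Lengths were set on 571 genes with 1 annotated transcript, of which at least 98.07% came within 1% of the annotated length. The same genes set the scale, so this share does not measure accuracy for genes with several transcripts. GENCODE M21 on GRCm38, used for positions and transcripts, matched 96.4% of symbols. RefSeq promoter windows were used for 7 of 8 members, in 10 windows, and the promoter of Dtna is not reported here. Methods were tested on simulated counts.

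Libraries held 55032000 to 97091200 counts. Replicates differed beyond sampling noise, so none was counted as a repeat of another. They were separate animals. By the study's sample table every cohort had the same mix of males and females, except MBNL1+MBNL2, which was all male. Replicate numbers were checked for pairing by correlating deviations from group means. Every same-numbered pair correlated above 0.1 between atria and ventricle of -dox (r 0.339 to 0.587), whose tissues came from the same animals, and in atria MBNL1 against +dox and atria -dox against +/-dox. In those comparisons the replicate block changed no call of a member. The library set was read from the leading digits of the library names, set A holding replicates 1 and 2 and set B replicate 3 and all of MBNL1+MBNL2.

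The members and lists were chosen with earlier results of these data known. Named are the 8 members, genes of each list called in -dox against +dox in either tissue, the 2 genes most correlated with each member, and Mbnl1, Mbnl2 and Dmpk as a check of the labels. Some genes of these lists are not reported here.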

Additional observations from a re-analysis of the deposited data

How the results depend on the processing

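Counts below are of members past the threshold, with a fold change of at least 1.5 unless stated. Leaving out 1 library moved these counts from 0 to a range of 0 to 1 in ventricle -dox, atria -dox and atria +/-dox, and from 1 to 0 to 1 between chambers. Counts of the length index ranged from 0 to 2 in ventricle -dox and from 0 to 1 in ventricle +/-dox, ventricle MBNL1+MBNL2, atria -dox and atria +/-dox, all against +dox. Without a fold minimum the counts were 3 in ventricle -dox, 5 in ventricle +/-dox, 2 each in ventricle MBNL1, ventricle MBNL1+MBNL2, atria -dox and atria +/-dox, 1 in atria MBNL1+MBNL2 against +/-dox and 5 between chambers. On log2(TPM + 1) or log2(TPM + 0.1) they were 1 in ventricle -dox, 1 in atria -dox, 1 in atria MBNL1+MBNL2 against +/-dox and 2 between chambers, and in set A alone 1 in atria -dox and 1 in atria +/-dox.

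The replicate block left every such count as it was, apart from 1 length call (Sgca, adjusted p = 0.0485, limma) in ventricle MBNL1+MBNL2. Without a fold minimum it added calls that the unpaired fit lacked, Sspn in all 3 ventricular MBNL cohorts, Sgcd in ventricle MBNL2 and Dmd in atria +/-dox (adjusted p = 0.0432, edgeR). In these comparisons the samples share a number and no pairing was found. The library set as a covariate added calls of Sgcd in ventricle -dox, Dtna in ventricle +/-dox (adjusted p = 0.0404, edgeR) and Dmd in atria +/-dox, and ended that of Dtna in ventricle MBNL1+MBNL2.

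Directions turned only for members and comparisons without a call, apart from the chamber comparison. Leaving out 1 library, Dmd ranged from -0.00071 to 0.21 in ventricle -dox and from -0.0305 to 0.082 in ventricle +/-dox, Sgca from -0.055 to 0.099 in ventricle -dox and from -0.092 to 0.041 in atria +/-dox, and Utrn from -0.0088 to 0.075 in atria -dox. Sgca in ventricle -dox also went to -0.025 in set A and to -0.0142 and -0.0143 on TPM with either pseudocount, and Utrn in atria -dox to -0.028 and -0.0288. Between chambers on TPM, Sgca went to 0.32 and 0.325, Sgcb to 0.32 and 0.326 and Dtna to 0.27 and 0.274. Length differences, leaving out 1 library, ranged for Dmd from -0.086 to 0.032 in ventricle -dox, -0.0195 to 0.046 in atria -dox and -0.032 to 0.027 in atria +/-dox, and for Utrn from -0.0072 to 0.0126 in ventricle -dox, -0.0122 to 0.0093 in ventricle +/-dox and -0.0040 to 0.0169 in atria +/-dox. Utrn in ventricle -dox went to 0.000777 with the lower filter and to 0.0003003 with other centring. Of 797 alternative values of single members, 684 kept direction and side of the threshold, 54 lost a call, 24 gained one and 35 turned. The cause of these changes was not tested.

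Each group held 3 animals, which limits the precision. All alternatives set out for these comparisons were run.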

Other observations

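The lists of other sarcolemmal systems are given as counts beside the share of all genes called. Of 19 genes of the integrin and costamere anchors, which tie the Z-disc to the membrane through a route parallel to dystrophin, 4 rose and 4 fell in ventricle -dox against +dox and likewise in atria -dox, beside 20.9% and 15.9% of all genes called in either direction, with list medians of 0.053 and 0.067. Tln1 (talin), which links integrin to actin, rose from a mean of 18.9 to 29.9 TPM in the ventricle (log2 fold change 0.69, adjusted p = 5.57e-06, edgeR) and from 25.4 to 47.8 TPM in the atria (0.94, adjusted p = 3.4e-08). Lims2, an adaptor of integrin-linked kinase, rose in the ventricle (0.99, adjusted p = 0.000119) and the atria (0.59, adjusted p = 0.0165), as did the intermediate filament gene Des (0.56, adjusted p = 0.000191, and 0.41, adjusted p = 0.0051). Plec rose in the ventricle (0.54, adjusted p = 0.00105) and Parva in the atria (0.19, adjusted p = 0.0362). The genes that fell in both tissues were the integrin subunit Itgb1 (-0.28, adjusted p = 0.0128, and -0.42, adjusted p = 0.000442), the spectrin Sptbn1 (-0.30, adjusted p = 0.000332, and -0.37, adjusted p = 3.43e-05), and the ankyrins Ank2 (-0.33, adjusted p = 0.00152, and -0.36, adjusted p = 0.00102) and Ank3 (-0.27, adjusted p = 0.00643, and -0.26, adjusted p = 0.0103). In ventricle MBNL1+MBNL2 against +dox 4 of the 19 rose and 3 fell, beside 8.34% of all genes, and in the atria 2 rose and 1 fell, beside 0.686%.

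Of 10 membrane repair genes, 3 rose and 1 fell in ventricle -dox, beside 20.9% of all genes called, and 2 rose and 1 fell in atria -dox, beside 15.9%, with list medians of 0.13 and 0.12. Anxa5, an annexin that patches torn membrane, fell from 92.5 to 55.2 TPM in the ventricle (log2 fold change -0.71, adjusted p = 1.16e-07, edgeR) and from 115 to 59.8 TPM in the atria (-0.91, adjusted p = 1.18e-09). Ehd2 (0.59, adjusted p = 5.14e-05), Dysf (0.28, adjusted p = 0.0435) and Cavin1 (0.23, adjusted p = 0.0385) rose in the ventricle, and Cavin4 (0.60, adjusted p = 0.0098) and Myof (0.33, adjusted p = 0.0386) rose in the atria. Endothelial markers were higher in the same libraries, and Cavin1 and Ehd2 are also expressed by endothelial cells. The part of those cells was not tested.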
